A study of Mus musculus with 2 samples.

Results

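The voltage-gated potassium channel genes of the mouse were examined for H3K27me3, trimethylation of histone H3 at lysine 27, in sciatic nerve. They were chosen by symbol, as all RefSeq protein-coding genes named Kcn with a subfamily letter A, B, C, D, F, G, H, Q, S or V and a number, and 40 genes met that rule, of 21887 protein-coding genes on chromosomes with peaks. The data were 1 H3K27me3 chromatin immunoprecipitation (ChIP) library and 1 input library from the nerves of C57/BL6 male mice, 8 weeks of age. Chromatin was crosslinked, sheared and precipitated with an H3K27me3 antibody, and the input is sheared chromatin kept back before that step. Neither library has a replicate, the labels do not say how many animals were pooled, and the nerve was not described as sorted. Each value below therefore describes 1 preparation, and no p-value could be given.

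Voltage-gated potassium (Kv) channels open when the membrane depolarises and let potassium out, which ends the action potential and sets how fast a neuron can fire. The A, B, C and D genes encode the classical Kv channels, the H genes the eag, erg and elk channels, and the Q genes channels that include the M-current of neurons. The F, G, S and V genes encode silent subunits, which make no channel alone and modify B channels. In myelinated nerve, Kcna1 and Kcna2 channels sit in the axon under the myelin next to the node, and channels that hold Kcnq3 sit at the node itself. Those proteins are made in neuronal cell bodies that lie outside the nerve, while the chromatin in a nerve comes from Schwann cells, fibroblasts, vessels and immune cells. H3K27me3 is laid down by the Polycomb repressive complex and is found at silenced genes.

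The deposited list holds 6018 peaks with 185225 reads in all, the authors' score of each peak being read as a whole number of reads. A marked gene is one with at least 1 bp of its annotated span, or of the 2 kb on either side, inside a peak. Over all protein-coding genes, 10.5% were marked, and 5.46% with a peak of at least 20 reads. Of 10 Schwann cell marker genes, 4 were marked, with 10 to 18 reads each, among them the myelin gene Mbp and the regulators Egr2 and Sox10, and none had a peak of 20 reads. Of 6 neuron markers, 4 were marked, led by Rbfox3 with 268 reads in 10 peaks. Elavl3 had 55 reads, Tubb3 13 and Snap25 12, and 2 of the 6 had a peak of at least 20 reads. None of 4 endothelial and mural markers and none of 4 macrophage markers was marked, and of 5 fibroblast and perineurial markers 1 was, Pdgfra with 68 reads. In unsorted tissue, fewer cells with the mark and less of the mark per cell cannot be told apart, and a peak does not say which cells carry it.

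Most Kv genes carried the mark. Of the 40, 23 were marked (57.5%, exact 95% binomial interval 40.9 to 73.0), against 10.5% of all protein-coding genes (2302 of 21887). The 23 genes held 38 peaks and 1053 reads. Kcnh3, Kcnc4, Kcna7 and Kcnc1 held 129, 114, 89 and 79 reads. Of 8 Kcnh genes 5 were marked and of 8 Kcna genes 3. The 1 Kcnf gene and the 2 Kcnv genes were unmarked, too few to describe a subfamily. With a peak of at least 20 reads required, 14 of 40 were marked (35.0%), against 5.46% of all protein-coding genes. Within 2 kb of an annotated gene end, 19 of 40 had a peak (47.5%), against 8.59% of all genes.

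**Figure D1:**
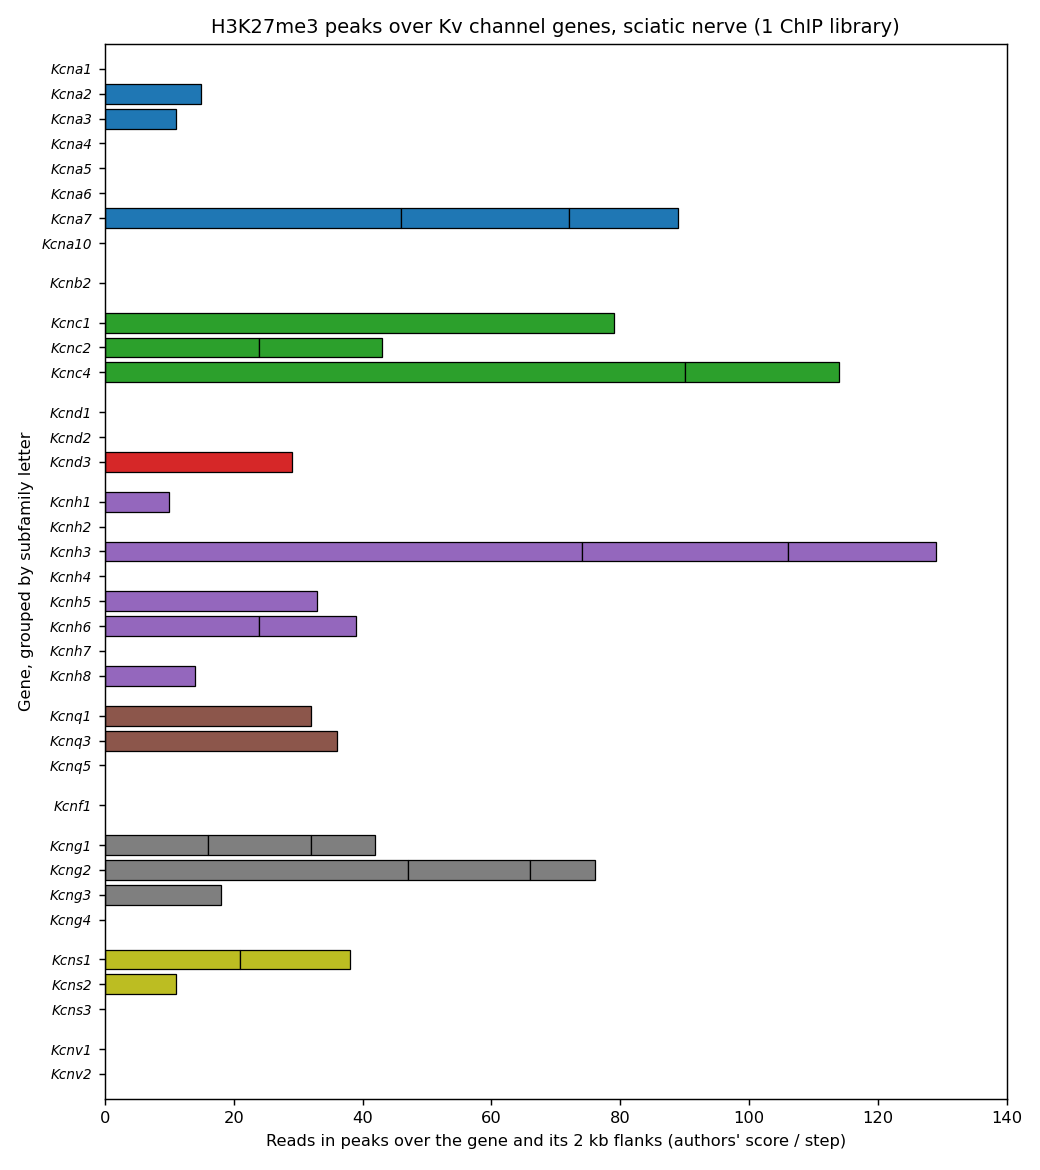
Reads in H3K27me3 peaks (horizontal axis) over 36 of the 40 Kv genes and their 2 kb flanks, grouped by subfamily letter; black lines divide a bar into its peaks and genes with no bar had no peak. Kcnh3 stands at 129 reads, Kcnc4, Kcnc1 and Kcnc2 at 114, 79 and 43, and 17 genes carry no bar.

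Promoter sequences of 6 members are printed here to show the starts that lay inside a broad peak, just before a peak, or far from one. Each runs from 250 bases before to 50 bases after a transcript start (RefSeq, GRCm38.p6), 5′ to 3′, with every CG dinucleotide in capitals. Such CpG sites are the feature of promoters at which Polycomb is best known to gather. Kcnc1 (chr7:46396218-46396517, plus strand) holds 41 CpG sites and Kcnc4 (chr3:107458849-107459148, minus strand) holds 17, and both lie entirely inside a peak.
Kcnc1: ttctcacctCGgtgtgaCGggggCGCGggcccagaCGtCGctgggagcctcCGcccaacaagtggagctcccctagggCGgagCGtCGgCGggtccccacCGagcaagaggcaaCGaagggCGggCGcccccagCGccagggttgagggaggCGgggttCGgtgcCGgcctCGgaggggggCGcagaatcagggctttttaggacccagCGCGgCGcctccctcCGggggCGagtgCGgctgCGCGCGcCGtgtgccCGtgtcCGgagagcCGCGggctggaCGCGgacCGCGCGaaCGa
Kcnc4: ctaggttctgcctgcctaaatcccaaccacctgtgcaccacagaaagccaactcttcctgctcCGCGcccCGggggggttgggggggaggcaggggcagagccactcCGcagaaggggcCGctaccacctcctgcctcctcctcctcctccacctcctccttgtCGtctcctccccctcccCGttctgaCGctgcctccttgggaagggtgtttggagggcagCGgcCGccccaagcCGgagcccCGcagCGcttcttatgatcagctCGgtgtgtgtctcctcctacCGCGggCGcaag

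Kcnh6 (chr11:106007898-106008197, plus strand) holds 24 CpG sites and Kcna7 (chr7:45405710-45406009, plus strand) holds 4. Both genes were marked, and no base of either promoter lay in a peak, because the peaks began downstream of it.
Kcnh6: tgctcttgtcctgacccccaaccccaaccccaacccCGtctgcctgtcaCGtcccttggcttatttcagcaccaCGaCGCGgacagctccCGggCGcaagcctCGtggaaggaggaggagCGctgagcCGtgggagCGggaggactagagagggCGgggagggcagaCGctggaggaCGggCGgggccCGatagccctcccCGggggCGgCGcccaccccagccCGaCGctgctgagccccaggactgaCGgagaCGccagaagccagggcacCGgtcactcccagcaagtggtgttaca
Kcna7: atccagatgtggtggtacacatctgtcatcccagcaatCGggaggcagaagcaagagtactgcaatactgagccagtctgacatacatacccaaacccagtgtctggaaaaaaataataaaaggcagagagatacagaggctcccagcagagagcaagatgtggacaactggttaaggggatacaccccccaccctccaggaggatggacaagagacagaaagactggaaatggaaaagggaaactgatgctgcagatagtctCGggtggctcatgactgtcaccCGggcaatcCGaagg

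Kcnd2 (chr6:21215096-21215395, plus strand) holds 26 CpG sites and Kcnh2 (chr5:24329542-24329841, minus strand) holds 19. Neither gene was marked. The Kcnh2 start in the table lies inside the annotated gene, so it is not the most upstream end of that gene.
Kcnd2: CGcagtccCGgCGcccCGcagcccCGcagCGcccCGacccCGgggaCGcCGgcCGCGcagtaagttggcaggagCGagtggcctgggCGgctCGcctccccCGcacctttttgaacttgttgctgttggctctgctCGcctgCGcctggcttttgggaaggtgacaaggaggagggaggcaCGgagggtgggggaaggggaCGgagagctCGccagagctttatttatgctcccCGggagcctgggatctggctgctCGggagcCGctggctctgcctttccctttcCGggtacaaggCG
Kcnh2: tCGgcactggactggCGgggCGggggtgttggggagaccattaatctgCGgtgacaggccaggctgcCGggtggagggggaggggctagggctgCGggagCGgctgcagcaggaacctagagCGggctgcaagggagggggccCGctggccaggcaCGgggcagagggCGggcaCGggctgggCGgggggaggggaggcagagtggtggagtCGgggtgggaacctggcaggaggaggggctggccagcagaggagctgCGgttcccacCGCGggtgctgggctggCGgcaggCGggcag

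The Kcnc genes, whose channels open and close fast and allow neurons to fire at high rates, included some of the Kv genes with the broadest peaks. Kcnc4, which encodes a fast-inactivating channel, had 114 reads (95% Poisson interval 94.0 to 137.0). They fell in a peak of 3581 bp over its start with 90 reads (chr3:107457468-107461048) and in one of 1221 bp further upstream with 24 reads. Kcnc1, the channel best known in fast-spiking neurons, had 79 reads (62.5 to 98.5) in 1 peak of 3689 bp that ran over its start (chr7:46394440-46398128). Kcnc2 had 43 reads in 2 peaks of 834 and 902 bp among its 4 listed starts. The Kcnc2 interval was 31.1 to 57.9 reads. These intervals cover counting error only, and the difference between the genes was not tested. Peaks of Kcnc1, Kcnc2 and Kcnc4 held between 19.7 and 26.6 reads per kb. No Kv peak exceeded 5 kb, a width reached by 204 peaks of the whole list.

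The Kcna genes encode Shaker-type channels, and 3 of 8 were marked. Kcna7 had 89 reads (71.5 to 110.0) in 3 peaks that covered 48.3% of its 5.4 kb, the largest covered share of any Kv gene. The strongest of the 3, with 46 reads, ran over the gene's downstream end and came within 2 kb of Ntf5, a neurotrophin gene, so its reads cannot be given to either gene alone. Kcna2, a channel of the juxtaparanode, had 15 reads (8.4 to 24.7) in 1 peak of 807 bp, and Kcna3, known from T cells, had 11 reads in 1 peak of 500 bp. Both rested on few reads, and 500 bp is the shortest width in the list. Kcna1, the partner of Kcna2 at the juxtaparanode, had no peak, and the nearest lay 375.0 kb away. Kcna4, Kcna5, Kcna6 and Kcna10 had none either.

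Most Kcna genes stand in 2 clusters. The chromosome 3 cluster of Kcna3, Kcna2 and Kcna10 (chr3:107036162-107195721, 160 kb) held 2 peaks with 26 reads, 1 each at Kcna3 and Kcna2. Neither of these peaks reached 20 reads, and Kcna10 was unmarked. The chromosome 6 cluster of Kcna5, Kcna1 and Kcna6 (chr6:126532551-126740834, 208 kb) held no peak. The nearest peaks on either side of the chromosome 6 cluster lay 366 and 280 kb off. A difference of 26 reads against none was not tested, since peaks of fewer than 10 reads are not listed. The 4 Kv genes of chromosome 6, these 3 and Kcnd2, were all unmarked. Of all protein-coding genes of that chromosome 11.4% were marked, and 4 genes are too few to differ from that share.

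In the remaining classical subfamilies, long genes without a peak stood beside marked ones. The delayed rectifier gene Kcnb2, at 436.8 kb one of the longest Kv genes, had no peak. Of the Kcnd genes, which encode A-type channels, Kcnd3 had 29 reads (19.4 to 41.6) in a peak of 1302 bp downstream of its start. The antisense gene Kcnd3os overlapped the same peak, and ChIP reads do not tell the strands apart. Kcnd2, 514.5 kb long, had no peak, nor had Kcnd1 on the X chromosome, where 1.55% of protein-coding genes were marked.

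Of the Kcnh genes, 5 of 8 were marked, with 225 reads. Kcnh3, an elk channel of the forebrain, carried the most reads of any Kv gene, 129 (108.0 to 153.0) in 3 peaks. The broadest, 3099 bp with 74 reads, ran across the gene's lower-coordinate end (chr15:99223698-99226796), and the peaks covered 29.7% of the gene. That broadest peak also overlapped the non-coding gene Gm46538. The remaining marked Kcnh genes had fewer reads, 39 in 2 peaks for the erg channel gene Kcnh6, 33 in 1 for the eag gene Kcnh5, 14 in 1 for the elk gene Kcnh8 and 10 in 1 for Kcnh1. The Kcnh5 peak, at 34.3 reads per kb, was the densest over any Kv gene. The Kcnh1 peak lay deep in the gene, 185027 bp downstream of the listed start. The Kcnh6 peak at its start also lay within 2 kb of Ace3. Kcnh2, the erg channel that repolarises the heart, had no peak, and its nearest, 36.0 kb away, was the closest for any unmarked Kv gene. Kcnh4 and Kcnh7 had none.

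Of the Kcnq genes, Kcnq3, a subunit of the neuronal M-current, had 36 reads (25.2 to 49.8) in a peak of 1799 bp at an end of that gene (chr15:66285317-66287115). Kcnq1, a channel of heart and epithelia, had 32 reads in a peak of 972 bp at its lower-coordinate end (chr7:143107007-143107978). Within Kcnq1 lies Kcnq1ot1, an imprinted non-coding gene, and no peak lay within 2 kb of it. Kcnq5, which also contributes to the M-current, had no peak within 1798.9 kb.

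Among the silent subunits, 5 of the 10 genes of subfamilies F, G, S and V were marked, with 185 reads. Kcng2 on chromosome 18 had 76 reads (59.9 to 95.1) in 3 peaks at both of its ends, the strongest of 1792 bp with 47 reads. Kcng1 had 42 reads in 3 peaks of 10 to 16 reads, all inside the gene, and Kcng3 had 18 reads in 1 peak. Kcns1, a modifier of sensory neuron channels, had 38 reads in 2 peaks, and Kcns2 had 11 in 1. Kcng4, Kcnf1, Kcns3, Kcnv1 and Kcnv2 had none. Marked silent subunits thus spanned 11 to 76 reads, a range inside that of the other Kv genes.

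Peaks near a listed transcript start lay mostly over it or just downstream. The promoter table held 25 of the 40 members, of which 13 were marked and 12 had a peak within 2 kb of a listed start (48.0%), against 7.31% of the 17492 protein-coding genes in the table. The exception among the marked ones was Kcnh1, and the other 12 listed members had no peak. The 12 genes with a peak within 2 kb of a listed start had 13 such peaks. Of the 13, 8 lay wholly downstream of the nearest listed start, 4 ran over a start and 1, at Kcns1, lay wholly upstream. Over all genes in the table, 33.0% of 1575 such pairs of gene and peak lay downstream, 50.8% ran over the start and 16.3% lay upstream. With 13 peaks the order in the Kv genes is a description, and starts absent from the table were not considered. The downstream peaks had their centres between 601 bp at Kcnh5 and 1509 bp at Kcnd3 from the start. Among these 13 peaks the widest, at Kcnc1 and Kcnc4, ran over the start, as did 1 of the 2 at Kcnc2 and the one at Kcnh8.

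**Figure D2:**
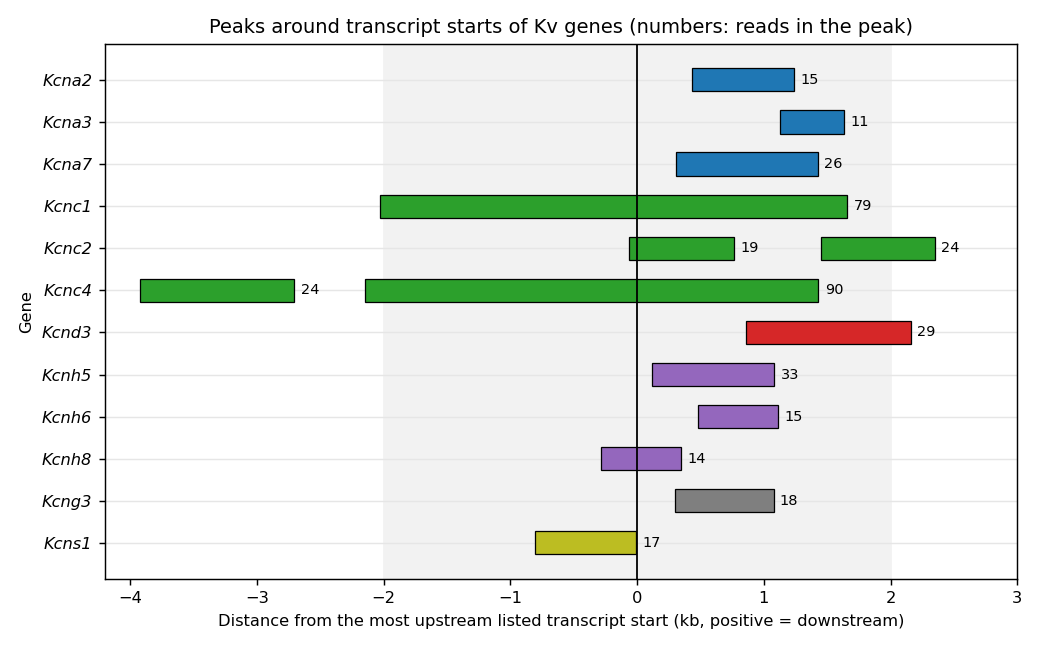
H3K27me3 peaks as boxes around the most upstream listed transcript start of 12 Kv genes, in kb with downstream positive and the 2 kb on each side shaded; the number beside each box is its reads, and peaks further into the gene are not drawn. The Kcnc1 and Kcnh8 boxes, the Kcnc2 box of 19 reads and the Kcnc4 box of 90 reads cross the start, the Kcns1 box and the farther Kcnc4 box lie upstream of it, and all others drawn begin downstream.

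In all, 25 of the 38 Kv peaks lay within 2 kb of an annotated end and 13 lay further inside a gene. Of the 38, 12 overlapped a non-coding gene or lay within 2 kb of one. Besides the Kcnd3 peak, these included the broadest Kcnh3 peak, the strongest Kcng2 peak and the Kcnq3 peak. All peaks of Kcna3, Kcnh6, Kcnh8, Kcns1 and Kcns2 were also among them. Reads of such peaks cannot be given to the Kv gene alone, and the same count was not made for all peaks. The marked genes had 1 peak in 13 cases, 2 in 5 and 3 in 5. Kcna2, Kcng1 and Kcnh1 were among the 4 genes with peaks inside the gene and none near an annotated end, though the centre of the Kcna2 peak lay 836 bp past a listed internal start. Kv peaks had a median width of 820.5 bp and a median of 19 reads. The medians were 727 bp and 15 reads for peaks over any protein-coding gene, and 643 bp and 14 reads over all peaks. The density of Kv peaks ran from 15.4 to 34.3 reads per kb, with a median of 22.2. That median was 21.4 for peaks over any protein-coding gene and 21.0 over all peaks. By reads, the strongest Kv peak, the one at Kcnc4, ranked 330 of 6018. Of the 38 peaks, 8 held 11 reads or fewer (21.1%), against 30.6% of peaks over any protein-coding gene and 36.7% of all peaks. For 10 reads the exact 95% Poisson interval runs from 4.8 to 18.4, and such intervals cover counting error only.

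The distance from an unmarked Kv gene to its nearest peak varied widely. Among the 17, the nearest peak lay between 36.0 kb away, for Kcnh2, and 29292.1 kb away, for Kcnd1, with a median of 366 kb. Kcnh2 was the only one with a peak within 50 kb. These distances were not computed for other unmarked genes, so whether they are particular to Kv genes was not tested. No reading below 10 can be given for unmarked genes.

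Long genes have more room for a peak, and the median length of the Kv genes was 32.3 kb, against 17.2 kb for all protein-coding genes. It was 51.4 kb for marked Kv genes and 19.8 kb for unmarked ones. Both groups held very long genes, marked Kcnh8 at 376.5 kb and unmarked Kcnq5 at 564.3 kb. Of Kv genes over 100 kb, 7 of 11 were marked (63.6%), against 22.0% of all genes of that length. Of those of 100 kb or less, 16 of 29 were (55.2%), against 9.09%. All genes were also ranked by length and cut into 10 equal classes. If each Kv gene had the share of its own class, 5.39 of the 40 would be marked (13.5%), where 23 were.

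The CpG content of Kv promoters overlapped widely between marked and unmarked genes. The ratio of observed to expected CpG in the 300 bases around the listed start, taking the start with the most CpG sites, had a median of 0.72 in 13 marked members (0.21 to 1.0) and 0.57 in 12 unmarked ones (0.0 to 0.78). Over all protein-coding genes the median was 0.67 for marked and 0.6 for unmarked genes. The highest values were those of Kcnc1 (1.0), Kcng3 (0.99), Kcna3 (0.95), Kcna2 (0.93) and Kcnd3 (0.92), all marked. Kcna7 (0.21) and Kcnc2 (0.28) were marked at low CpG, and Kcns3 (0.78) and Kcnd2 (0.74) were unmarked at high CpG. Among genes with a ratio of 0.6 or more, 9 of 14 Kv genes were marked, against 11.3% of all genes of that class. At a ratio of 0.3 to under 0.6, 2 of 5 Kv genes were marked, against 13.8% of all genes. Below 0.3, 2 of 6 Kv genes were, against 4.58%.

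**Figure D3:**
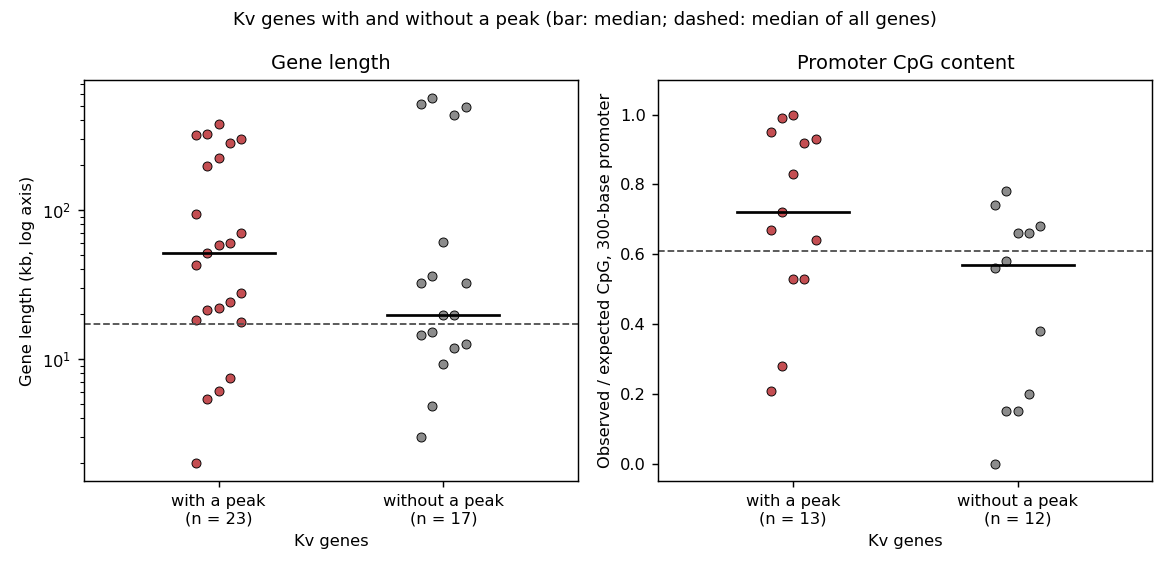
Gene length in kb on a log axis (left) and observed over expected CpG of the promoter (right) for Kv genes with a peak and without one; each point is 1 gene, black bars are medians and dashed lines the medians of all protein-coding genes. The marked and unmarked genes overlap in both panels, with medians of 51.4 and 19.8 kb and of 0.72 and 0.57.

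Other potassium channel genes and Kv auxiliary subunits were marked at shares of 33.3% to 50%, against 10.5% of all genes. Marked Kv genes had a median of 36 reads, and the medians of the 4 lists that follow lay between 12.5 and 28 reads. Two-pore channel genes, which set the resting potential, had 7 of 14 marked (50%), with Kcnk12 at 87 reads, Kcnk9 at 82 and Kcnk15 at 73. Inward rectifier genes had 6 of 15 (40%), with Kcnj4 at 34 reads, Kcnj5 at 28 and Kcnj9 at 14. Calcium- and sodium-activated channel genes had 4 of 12 (33.3%), with Kcnma1 at 50 reads, Kcnt1 at 22 and Kcnmb4 at 13. The auxiliary subunits that bind Kv channels had 6 of 14 (42.9%), led by Dpp10 at 42 reads, Kcnab1 at 28 and Kcne3 at 25. The median length was 396.5 kb for the marked auxiliary genes and 10.1 kb for the unmarked ones, and 22.0% of all genes over 100 kb were marked. Within 2 kb of an annotated end, 3 of the 14 had a peak (21.4%), against 8.59% of all genes. With at least 20 reads in a peak, 28.6% of two-pore genes, 13.3% of inward rectifiers, 8.33% of activated channels and 7.14% of auxiliary subunits were marked, and 35.0% of Kv genes as given above. These lists hold 12 to 15 genes each, so their intervals are wide.

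The partners of Kcna1 and Kcna2 at the juxtaparanode had 3 of 12 genes marked (25%, interval 5.49 to 57.2), against 10.5% of all protein-coding genes. The median length of these 12 genes was 97.3 kb, and 22.0% of all genes over 100 kb were marked. The median was 33.8 kb for the marked partners and 150.4 kb for the unmarked ones. With a peak of at least 20 reads required, 1 of the 12 was marked (8.33%), against 5.46% of all genes. Within 2 kb of an annotated end, 2 of the 12 had a peak (16.7%), against 8.59%. The 3 marked genes were Cntn2, Cntnap2 and Lgi3. Cntn2, an adhesion molecule shared by axon and glia, had 57 reads in 4 peaks. Its axonal partner Cntnap2 had 23 reads, and Lgi3 had 11. Lgi4, which Schwann cells secrete, had no peak.

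Sodium, calcium and pacemaker channel genes are longer than Kv genes, with medians of 32.3 kb for Kv genes and 110.9 kb for these, and 22.0% of all genes over 100 kb were marked, against 9.09% of shorter ones. Of 23 alpha subunits of sodium, calcium and pacemaker channels, 13 were marked (56.5%, 34.5 to 76.8), a share within the interval of the Kv genes. The median reads of marked genes were 36 for Kv genes and 27 for these, and 26 for all marked protein-coding genes. Among them the calcium channel genes Cacna1e and Cacna1i had 137 and 87 reads. With at least 20 reads in a peak, the shares were 35.0% for Kv genes and 26.1% for these, and neither difference was tested, there being 1 library.

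**Figure D4:**
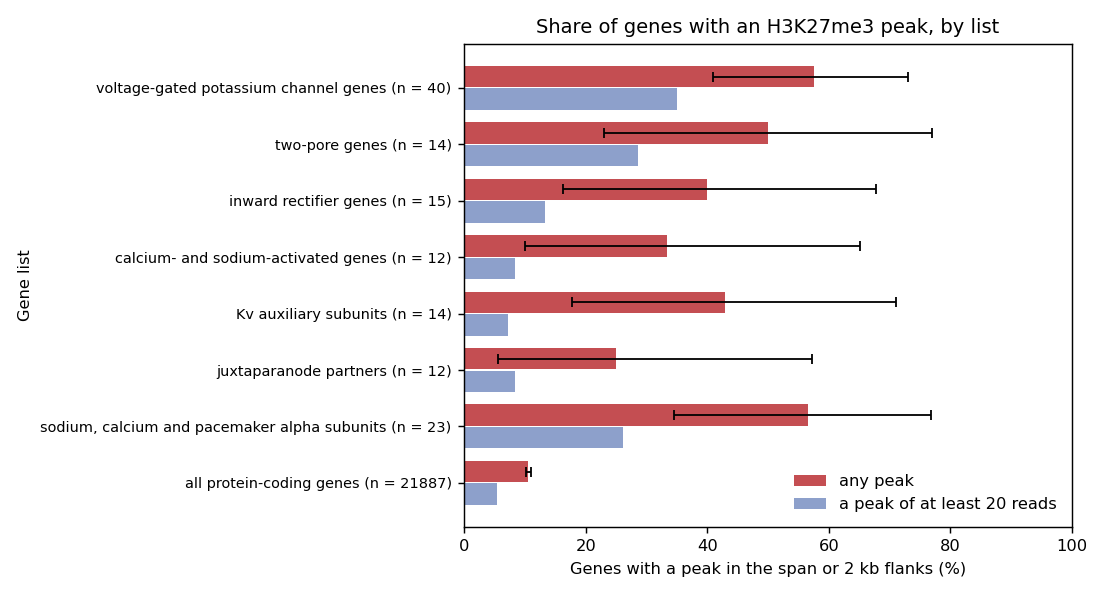
Percent of genes in each list with any peak (red, with exact 95% binomial intervals) and with a peak of at least 20 reads (blue, drawn without intervals) in the gene span or its 2 kb flanks. Kv genes stand at 57.5% and 35.0%, sodium, calcium and pacemaker subunits at 56.5% and 26.1%, and all protein-coding genes at 10.5% and 5.46%.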

How the data were processed

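The reads were processed with Bowtie and genome build mm10, per the submitters' processing notes. The sources used here do not say how peaks were called, with which threshold or with what use of the input. The authors' deposited file lists peaks with a position and a score, whose meaning the file does not state. Of 6018 scores, all but 4 were multiples of 2.57349 to within 0.05. Division by that step gave what is here called reads, at least 10 per peak. No input values were analysed here. Genes came from a RefSeq table of GRCm38.p6, the build of mm10, and transcript starts and strands from a RefSeq promoter table, which held 25 of the 40 members. Kcne5 was not used here.

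Overlaps were computed in Python 3.11.15 with pandas 2.3.3, checked against bedtools 2.31.1 and on made-up genes with known answers. Binomial and Poisson intervals are exact and came from scipy 1.17.1. Genes sharing a peak each count it. Members and lists were chosen with earlier results of these data known, and the sodium, calcium and pacemaker list was added last. The naming rule takes every member and the 3 genes with most reads per other list; some genes it takes are not reported here. Printed promoters follow a rule, applied to members in the promoter table: the marked gene with most covered bases in each of the 3 subfamilies with most marked genes, and the lowest-numbered unmarked gene of the first of these. Subfamily A was taken in place of Q, whose marked genes are not in that table. Kcnc1 and Kcnd2 were added after their values were seen. The 100 kb length limit and the CpG ratios of 0.3 and 0.6 were set without alternatives.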

Additional observations from a re-analysis of the deposited data

How the results depend on the processing

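The count of 23 marked Kv genes (57.5%) stood against 10.5% of all protein-coding genes. It was 22 without flanks (55.0% against 9.77% of all genes) and 23 with 5 kb flanks (57.5% against 11.7%). It was 19 near gene ends (47.5% against 8.59%). With only the peaks whose score reached the median of 36 it was 18 (45.0% against 7.08%). It was 23 when 50% of each peak had to lie inside the window (all genes 10.3%) and when 500 bp had to be covered (10.4%). It was also 23 when a peak counted only for its nearest gene (10.0%). In a setting added after seeing the data, peaks shared with another protein-coding gene's window were dropped. The count was again 23, and the share of all genes was not computed there. With peaks of at least 20 reads the count was 14 (35.0% against 5.46% of all genes). The 9 lost genes included Kcna2, Kcna3, Kcng1, Kcng3, Kcnh1, Kcnh8 and Kcns2, and the number of Kv peaks was 18 with 781 reads. Near gene ends the peaks numbered 25, with 837 reads. Kcnc1, Kcnc2 and Kcnc4 were marked in each of these settings. The share of all genes was 11.2% without olfactory and vomeronasal receptor genes, 11.1% on autosomes and 13.5% in the length classes of the members. No paired analysis was possible because each group has 1 library, and no replicate could be left out. A gene without a peak may hold reads below the list's minimum of 10.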
